A study of Mus musculus with 68 samples.

Results

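The genes described here are 10 genes named together because of Spp1, the gene of osteopontin (OPN): the other 4 members of its family, Ibsp, Mepe, Dmp1 and Dspp, and 6 genes listed as lying near it, Pkd2, Abcg2, Ppm1k, Nudt9, Hsd17b11 and Aff1. They were taken as listed, each by its named probe set, and 9 of the 10 were measured among 19505 named genes. Pkd2, which encodes a cation channel and is the gene next to Spp1, had no named probe set, and neither had Spp1, so its transcript gives no check of the OPN genotype. In the RefSeq gene table of assembly GRCm38.p6, 7 of the 9 measured genes lie on chromosome 5 on one side of Spp1. Counted in protein-coding genes from Spp1, Mepe is at place 1, Ibsp at place 2, Dmp1 at place 3, Dspp at place 4, Nudt9 at place 7, Hsd17b11 at place 8 and Aff1 at place 11. Ppm1k and Abcg2 are listed on chromosome 6 in that table, although the list gives them as neighbours of Spp1, so they are described apart from the linked genes.

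The family is known as the SIBLING proteins (small integrin-binding ligand, N-linked glycoproteins). They are acidic phosphoproteins secreted into bone and dentin, where they bind calcium and mineral, and most carry an arginine-glycine-aspartate motif through which they bind integrins. Their genes lie side by side in mammalian genomes. Osteopontin is the member made widely outside the skeleton, also by tumours and macrophages, whereas the others are known chiefly from bone and teeth.

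Total RNA of mouse prostate samples was measured on Clariom S arrays, and the unit throughout is the log2 expression value that the authors made by RMA, on which a difference of 1 is a 2-fold change. TRAMP mice carry the SV40 early region under the rat probasin promoter, which is active in prostate epithelium and leads to prostate cancer. The groups with the transgene (genotype TRAMP +/-) were TRAMP alone, with 7 animals of 16 weeks (early) and 7 of 24 to 25 weeks (late), and OPN-/- TRAMP, with 6 animals of 16 to 17 weeks and 3 of 24 to 27 weeks. The groups without it (TRAMP -/-) were wild type, with 4 animals of 16 weeks and 6 of 24 weeks, and OPN-/-, with 5 animals of 16 to 17 weeks and 3 of 24 weeks. SPARC-/- mice, which lack another matricellular protein and keep an intact Spp1, served as a second knockout: with the transgene 6 animals of 18 to 19 weeks and 9 of 24 to 29 weeks, and without it 7 of 16 to 18 weeks and 4 of 25 to 27 weeks. All samples are labelled as prostate tumours, those without the transgene included. The sources used here give neither the strain nor how the OPN allele was made. Array O12, with a SPARC-null label and an animal code of the OPN-null series, was left out, so that 67 of 68 arrays were used, each from its own animal.

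Array quality differed between groups and moves with several of the genes below. It was measured as the area under the curve (AUC) with which positive control probe sets outrank negative ones on an array, and 7 of the 67 arrays, in 6 of the 12 groups, were under 0.7. Among the late OPN-null arrays without the transgene, 2 of 3 were under 0.7 (O2 at 0.691 and O14 at 0.678, against 0.745 for O7), and among the late OPN-null TRAMP arrays 1 of 3 (OT3, 0.683). No array of the late TRAMP, the early wild-type or the early OPN-null groups was under 0.7. The prostate luminal markers Pbsn (mean 10.76) and Tgm4 (11.88) were well above the negative controls over the arrays as a whole. The dimmest measured marker of that list, Hoxb13 (7.415), lay above 81.1% of the negative control probe sets. In the late OPN-null TRAMP group the luminal list averaged 6.64 to 6.86 per array, against 8.86 to 10.15 in late TRAMP.

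Promoters are shown for the 3 genes that fell most clearly in late OPN-null TRAMP tumours and for Ibsp, which rose, so that the sequences can be set beside the values. The RefSeq table (GRCm38.p6) held a promoter for 9 of the 10 genes, and Dspp had none. Each runs from 250 bases before to 50 after the start site, 5′ to 3′ on the gene's strand. Capitals mark matches on either strand to the TATA box (TATAAA), the CCAAT box (CCAAT), the GC box (GGGCGG), the Runx core (TGTGGT) and the androgen receptor half-site (AGAACA), none of which overlap here. Aff1 has 2 start sites in the table, and the upstream one is shown.
Aff1, chr5:103753912-103754211, plus strand: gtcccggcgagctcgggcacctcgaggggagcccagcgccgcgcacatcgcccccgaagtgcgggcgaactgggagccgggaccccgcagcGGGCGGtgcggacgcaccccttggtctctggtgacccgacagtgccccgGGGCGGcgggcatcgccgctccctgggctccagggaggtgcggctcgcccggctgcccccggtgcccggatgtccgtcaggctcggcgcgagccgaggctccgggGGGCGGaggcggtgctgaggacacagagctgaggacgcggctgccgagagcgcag
Hsd17b11, chr5:104021747-104022046, minus strand: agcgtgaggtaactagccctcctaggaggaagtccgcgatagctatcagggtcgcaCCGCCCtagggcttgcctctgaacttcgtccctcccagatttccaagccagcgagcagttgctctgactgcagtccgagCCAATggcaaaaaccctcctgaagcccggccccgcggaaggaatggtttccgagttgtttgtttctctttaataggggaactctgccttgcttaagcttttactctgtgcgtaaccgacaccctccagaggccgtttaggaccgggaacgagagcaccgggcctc
Ppm1k, chr6:57535438-57535737, minus strand: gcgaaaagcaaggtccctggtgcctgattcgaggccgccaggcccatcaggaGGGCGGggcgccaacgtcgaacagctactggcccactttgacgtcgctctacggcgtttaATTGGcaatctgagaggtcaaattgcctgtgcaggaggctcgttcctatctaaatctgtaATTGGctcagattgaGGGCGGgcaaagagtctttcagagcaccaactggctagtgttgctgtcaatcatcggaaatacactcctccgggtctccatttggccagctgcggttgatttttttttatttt
Ibsp, chr5:104299037-104299336, plus strand: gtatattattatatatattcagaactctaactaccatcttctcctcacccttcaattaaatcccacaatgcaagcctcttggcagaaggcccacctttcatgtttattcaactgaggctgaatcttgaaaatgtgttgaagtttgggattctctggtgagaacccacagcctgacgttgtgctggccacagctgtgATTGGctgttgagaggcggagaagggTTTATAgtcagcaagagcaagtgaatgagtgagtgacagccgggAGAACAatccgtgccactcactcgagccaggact

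The Aff1 window held 3 GC boxes and none of the other motifs, with 77.3% G and C and 40 CpG pairs, against medians of 52.7% and 7 over 32851 mouse promoters. The Hsd17b11 window held 1 CCAAT and 1 GC box, and that of Ppm1k held 2 of each. The Ibsp window was poorer in G and C, at 46.3% with 5 CpG pairs, and carried a TATA box on the opposite strand at bases -28 to -23, a CCAAT box on the opposite strand at -54 to -50 and an AGAACA at 17 to 22. Of all promoters of this length, 13.6% held the TATA box, 37.4% the CCAAT box, 35.7% the GC box, 16.8% the Runx core and 19% the androgen receptor half-site. These matches describe the letters of these windows, and binding was not measured.

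The SIBLING genes were first compared between OPN-null and OPN-intact mice. Ibsp and Dmp1 were dim, with 17.4% and 21% of all tested probe sets below their means over the 67 arrays. Dspp (51.1%) and Mepe (56.9%) lay near the middle of the tested probe sets. Over the 67 arrays, 41.2% of the 5222 negative control probe sets lay below the mean of Ibsp, 45% below that of Dmp1, 66.2% below that of Dspp and 69.2% below that of Mepe. The negative controls set no sharp background, so the size of a difference between values that lie among them is not exact. Of the 7 measured bone markers (Bglap, Bglap2, Sp7, Alpl, Sost, Phex and Col1a1), 0 were called in late TRAMP, beside 21.5% of all probe sets. The bone list averaged 6.97 to 7.22 per array in late TRAMP and 6.99 to 7.25 in late OPN-null TRAMP.

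Ibsp encodes bone sialoprotein, which nucleates mineral and binds integrins. In late TRAMP it measured 4.50 to 5.004 with a median of 4.73, and in late OPN-null TRAMP 4.93 (OT2), 6.11 (OT3) and 5.16 (OT6). The groups overlapped, with 2 of 3 OPN-null arrays above the highest TRAMP array. Ibsp rose by 0.65 ± 0.22 (SE; n = 3 and 7) with an adjusted p of 0.0335 from limma. The rise depended on array OT3, the array of lowest quality in that group: without it the difference was 0.29 and was not called. Without T3, T6 or T7 the difference stayed at 0.60 to 0.63 and was not called. With AUC (0.39) or age in weeks (0.37) as a covariate it was not called either. Over the 7 processing alternatives the adjusted p of this comparison ranged from 0.0292 to 0.363.

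Dmp1, whose product regulates mineralisation and phosphate through osteocytes, was 0.39 ± 0.17 higher in late OPN-null TRAMP with an adjusted p of 0.0921, and so was not called. Dspp encodes the precursor of dentin sialoprotein and dentin phosphoprotein, and its 3 OPN-null values, 6.57, 6.59 and 6.60, lay above all 7 TRAMP values, which ran from 5.91 to 6.38. Its difference of 0.40 ± 0.17 was not called (adjusted p = 0.0913), and the exact permutation test gave p = 0.00833, the smallest value that 120 splits allow, or 0.06 after adjustment over 36 tests. With only these groups in the fit the same difference had an SE of 0.12 and was called. Mepe, whose acidic peptide inhibits mineralisation, differed by -0.03 ± 0.14 (adjusted p = 0.894).

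In the other 3 strata, where 0.0045% (early TRAMP) or 0% (without the transgene) of all probe sets were called, no SIBLING gene was called. The differences ran from -0.08 (Dspp) to 0.12 (Ibsp) in early TRAMP, from -0.02 (Mepe) to 0.39 (Ibsp) in late mice without the transgene and from -0.07 (Dspp) to 0.15 (Dmp1) in early ones. Averaged over the 4 strata, Ibsp was 0.28 ± 0.10 higher with an adjusted p of 0.0647. There 0 of the 4 genes were called, beside 8.3% of all probe sets. Leaving out T10, OT2, OT6, OT12, B6 or O7 brought the Ibsp value, then 0.29 to 0.34, past the threshold. Against SPARC-null mice, where 22.8% of all probe sets were called, Ibsp was higher by 0.40 ± 0.10 (adjusted p = 0.00258), the only SIBLING gene called. It was not called with AUC as a covariate (0.17) or without the late TRAMP stratum (0.30).

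The linked genes beyond the family are a different kind of gene, expressed in most tissues, and in late TRAMP tumours all 3 measured ones fell. Aff1 encodes AF4, a scaffold of the super elongation complex that promotes transcription by RNA polymerase II. It measured 7.75, 7.97, 8.25, 8.06, 8.26, 7.87 and 8.20 in late TRAMP and 6.30 (OT2), 6.28 (OT3) and 6.56 (OT6) in late OPN-null TRAMP. The ranges were more than 1 log2 unit apart. Aff1 fell by 1.68 on the log2 scale, with an SE of 0.31 and an adjusted p of 0.000106. Of the negative control probe sets, 86.4% lay below its late TRAMP mean and 67.9% below its late OPN-null TRAMP mean. The size of the fall is therefore not exact, as for the SIBLING genes. The fall was called in each of the 10 fits with 1 array left out (-1.76 to -1.63) and in all 7 processing alternatives (-1.68 to -1.28).

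**Figure D1:**
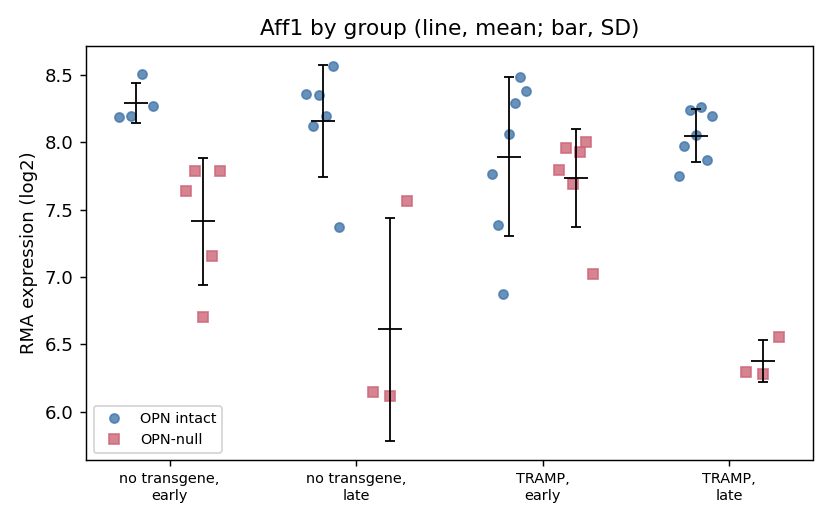
Log2 expression of Aff1 (vertical axis) in the 4 pairs of groups without and with the TRAMP transgene, early and late; each point is an array, circles are OPN intact and squares OPN-null, with the mean as a line and the SD as a bar. The OPN-null arrays lie below every OPN-intact array in late TRAMP and in early mice without the transgene, and the groups overlap in early TRAMP.

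In mice without the transgene the mean of Aff1 was lower in OPN-null animals at both ages, and neither difference was called. The early wild-type arrays measured 8.19, 8.20, 8.51 and 8.27, and the early OPN-null arrays 7.64, 7.79, 6.70, 7.15 and 7.79. All 5 OPN-null arrays were below all 4 wild-type arrays, with no array of either group under 0.7 in AUC. Quality was not even, however: O9 (0.725) and O1 (0.726) had a lower AUC than every wild-type array (0.739 to 0.762). The remaining OPN-null arrays, at 0.741 to 0.759, lay within the wild-type range. The difference was -0.88 ± 0.32. The exact permutation test gave p = 0.00794, the smallest value that 126 splits allow, or 0.06 after adjustment over 36 tests, and the limma test over all probe sets gave an adjusted p of 1.0. Aff1 was the 1 measured gene of the 9 whose ranges were apart in this pair of groups, where 2.45% of all probe sets had ranges apart.

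In late mice the wild-type arrays measured 8.36, 8.12, 8.36, 8.20, 8.57 and 7.37 (B6), and the OPN-null arrays 6.15 (O2), 6.12 (O14) and 7.57 (O7). The groups overlapped through O7 and B6. The difference was -1.55 ± 0.34 with an adjusted p of 0.0996, and 0 of the 9 genes were called. The OPN-null mean lay above 69.6% of the negative control probe sets, so this size is not exact either. Both low OPN-null arrays are those under 0.7 in AUC, and B6 (0.698) is the wild-type array under 0.7. Without O7 the difference was -2.03 and was called, with an adjusted p of 0.00154. Without the arrays under 0.7, only O7 is left in the OPN-null group, which was then assumed to vary like the other groups, and the difference was -0.75. The adjusted p ranged from 0.0552 to 1.0 over the 8 processing alternatives and from 0.00154 to 0.661 with 1 array left out.

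In early TRAMP mice the OPN-null arrays ran from 7.03 (OT14) to 8.01 with a median of 7.86, and the TRAMP arrays from 6.87 (T10) to 8.49 with a median of 8.06. The groups overlapped almost fully. The difference was -0.16 ± 0.25 (adjusted p = 0.922), and it was -0.39 with AUC as a covariate, not called either. Across the 22206 probe sets 1 was called in early TRAMP (0.0045%), and it was not one of the 9 genes.

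Averaged over the 4 strata, Aff1 fell by 1.07 on the log2 scale (SE 0.16, adjusted p = 3.09e-06), with 8.3% of all probe sets called. It remained called with each of the 41 arrays left out in turn. The 12 alternatives comprised changes of processing and averages over fewer strata, such as those below. Over them the difference ranged from -1.22 to -0.65, with 11 of 12 called. An average over the 3 strata other than late TRAMP, added after the data had been seen, gave -0.86 ± 0.19, and Aff1 was 1 of 29 probe sets called (0.131%). Without the arrays under 0.7 in AUC as well, the 3-strata value was -0.65 ± 0.16 and was not called, with 3 probe sets called in all.

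Hsd17b11 encodes a 17-beta-hydroxysteroid dehydrogenase found on lipid droplets. In late TRAMP it measured 7.72, 7.75, 8.51, 7.69, 8.07, 8.08 and 8.23, and in late OPN-null TRAMP 6.63, 6.66 and 6.79. The ranges did not overlap, and Hsd17b11 fell by 1.31 on the log2 scale (SE 0.34, adjusted p = 0.00444). Its late OPN-null TRAMP mean lay above 72.8% of the negative control probe sets, so this size is not exact either. The call was lost with age in weeks as a covariate (-0.99). Late OPN-null mice without the transgene measured 7.62, 7.24 and 8.35, within the wild-type range of 7.11 to 8.76, and the difference there was -0.50 ± 0.30 (adjusted p = 0.455). In the early strata the differences were 0.16 in TRAMP and -0.20 without the transgene. The 4-strata average of -0.46 ± 0.16 had an adjusted p of 0.0611. It was called with T9, T10, OT13, B6 or O7 left out, at -0.54 to -0.49.

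Nudt9, an ADP-ribose pyrophosphatase of mitochondria, measured 8.81 to 9.17 in late TRAMP and 7.88 (OT2), 8.57 (OT3) and 8.82 (OT6) in late OPN-null TRAMP. Array OT6 lay within the TRAMP range. Nudt9 fell by 0.56 on the log2 scale (SE 0.18, adjusted p = 0.0203), and the call was lost without OT2 (-0.29) and with quantile normalisation repeated (-0.45). In the other strata Nudt9 differed by -0.25 in early TRAMP, -0.01 in late and 0.18 in early mice without the transgene, none called.

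**Figure D2:**
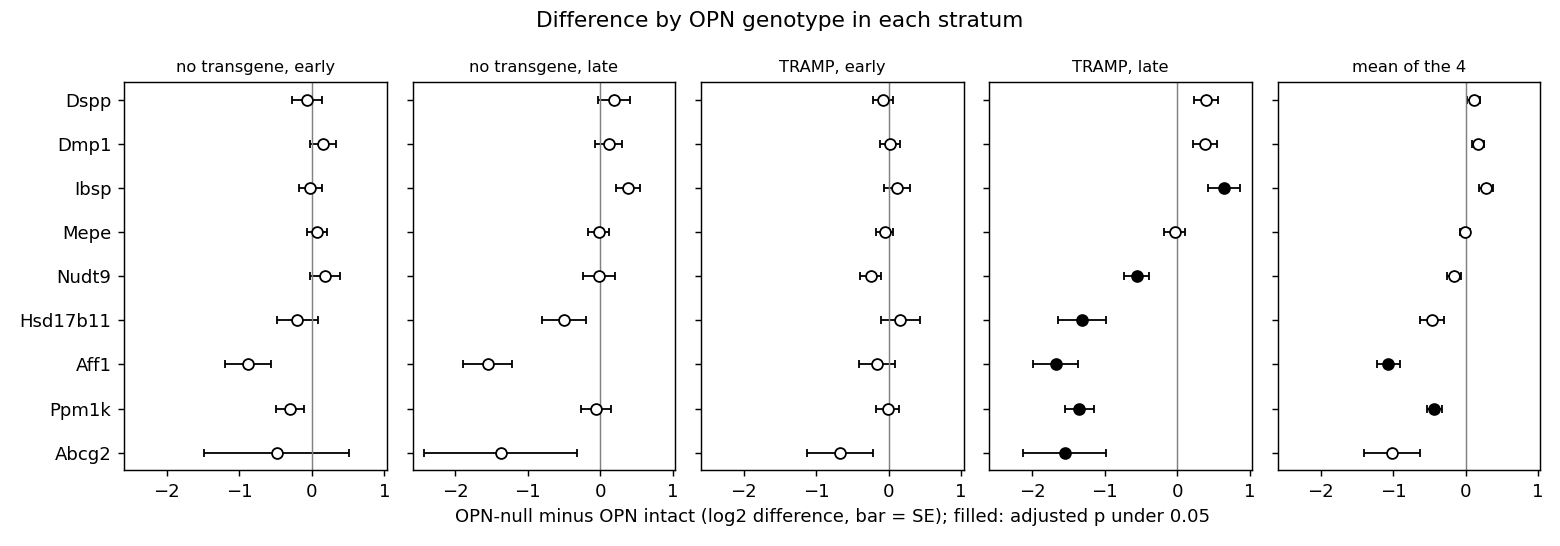
OPN-null minus OPN-intact log2 difference (horizontal axis, bar = SE) for the 9 measured genes in each of the 4 strata and in their mean; filled points had an adjusted p under 0.05. In late TRAMP 6 genes are filled, from -1.68 (Aff1) to 0.65 (Ibsp), and no gene is filled in the other 3 strata.

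Ppm1k and Abcg2, the genes on chromosome 6, also fell in late OPN-null TRAMP tumours. Ppm1k encodes the mitochondrial phosphatase that activates breakdown of branched-chain amino acids. It measured 6.62, 6.63, 6.70, 6.29, 6.89, 6.42 and 6.76 in late TRAMP and 5.44, 4.88 and 5.49 in late OPN-null TRAMP, with no overlap. Over the 67 arrays 64.8% of the negative control probe sets lay below the mean of Ppm1k, and 48.7% below its late OPN-null TRAMP mean. The size of its differences is therefore not exact, as for the SIBLING genes. Ppm1k fell by 1.35 on the log2 scale (SE 0.19), with the smallest adjusted p of the 9 genes in this comparison, 2.27e-06. The fall was called in all 7 processing alternatives and all 10 fits with 1 array left out. In the other strata the differences were -0.01 in early TRAMP, -0.06 in late and -0.30 in early mice without the transgene, none called. The 4-strata average of -0.43 ± 0.10 was called (adjusted p = 0.00306), but the average without late TRAMP was -0.12 and was not.

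Abcg2 encodes an efflux pump of the ATP-binding cassette family that exports drugs and urate. Its values were spread widely in most groups: 7.56 to 9.86 in late TRAMP, 7.68 to 11.01 in late wild type and 7.24 to 10.39 in early wild type. The 3 late OPN-null TRAMP arrays, at 7.15, 7.13 and 6.89, lay below all 7 TRAMP arrays. Abcg2 fell by 1.55 on the log2 scale (SE 0.57) with an adjusted p of 0.0464, and the call was lost in several other fits. These were the fits without T2, T3, T4, T5, OT2, OT3 or OT6 (-1.60 to -1.34), without the arrays under 0.7 in AUC (-1.58), with AUC (-1.20) or age in weeks (-1.76) as a covariate, and with a trended and robust prior (-1.55). In the other strata it differed by -0.67, -1.37 and -0.49 in early TRAMP, late and early mice without the transgene, each with an SE of at least 0.458 and none called. The 4-strata average was -1.02 ± 0.39 (adjusted p = 0.0856), and it was called without B6 (-1.11) or B11 (-1.21).

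**Figure D3:**
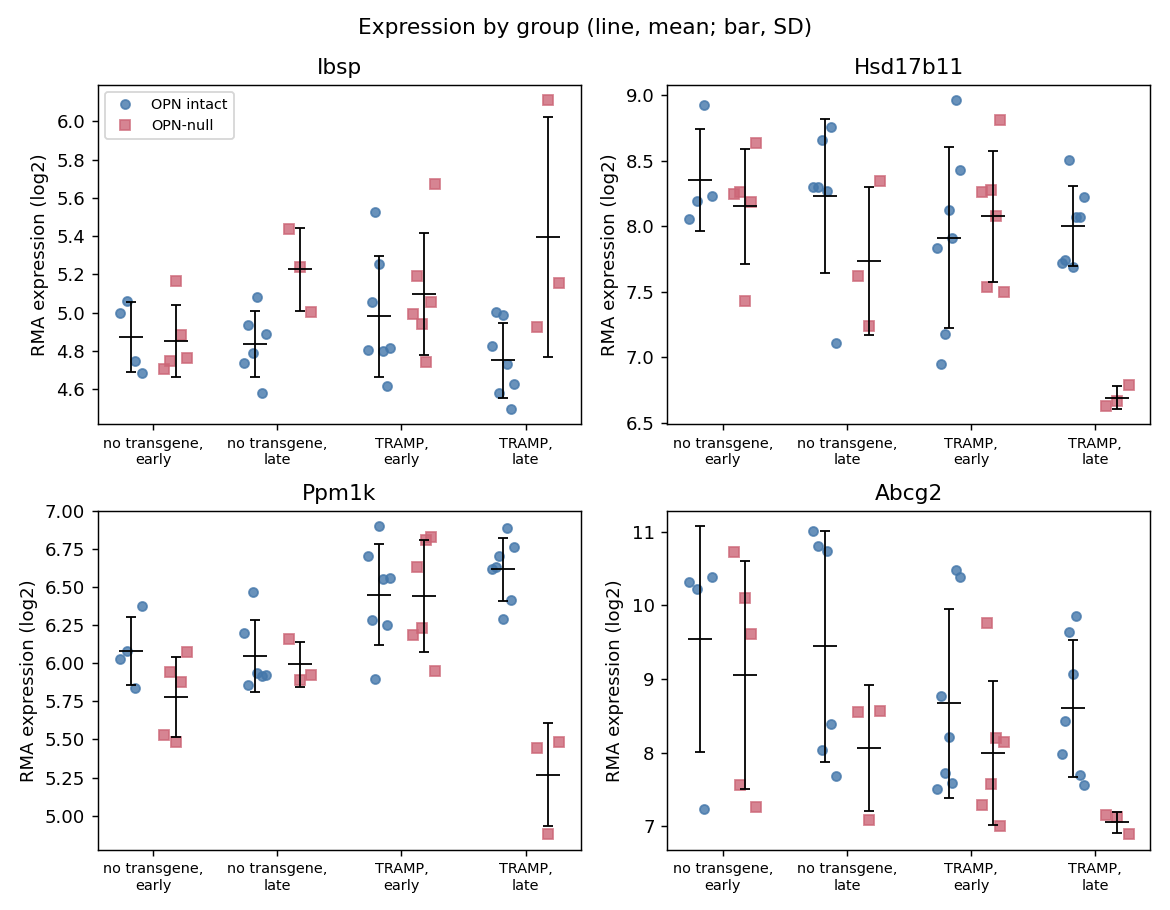
Log2 expression (vertical axes) of Ibsp, Hsd17b11, Ppm1k and Abcg2 in the 4 pairs of groups; circles are OPN intact, squares OPN-null, each point an array, with the mean as a line and the SD as a bar. In late TRAMP the OPN-null arrays of Hsd17b11, Ppm1k and Abcg2 lie below all TRAMP arrays, while those of Ibsp are spread from 4.93 to 6.11.

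In late TRAMP 6 of the 9 genes were called, 1 higher and 5 lower, where 21.5% of all probe sets were called. The ranges of 5 of the 9 were apart, against 17.9% of all probe sets. The median difference was -0.56 over the 9 genes, 0.39 over the 4 SIBLING genes and 0.03 over all probe sets. Many other genes changed in the same tumours. All 6 measured neuroendocrine markers rose, and that list averaged 7.18 to 7.71 per array against 5.27 to 5.78 in late TRAMP. Of the luminal markers 5 of 7 fell, of smooth muscle markers 5 of 6 (5.69 to 6.33 against 8.65 to 9.87), of urothelial markers 3 of 4 (5.94 to 6.27 against 7.09 to 7.64), of macrophage markers 3 of 5 (6.13 to 6.49 against 6.53 to 7.25), of endothelial markers 2 of 4 (5.49 to 5.75 against 5.83 to 6.44), of skeletal muscle markers 1 of 5 (6.82 to 7.24 against 6.81 to 9.14) and of seminal vesicle markers 0 of 6 (5.47 to 5.88 against 5.39 to 11.7). Their part in the results for the 9 genes was not tested, and in bulk RNA fewer cells of a type and less RNA per cell cannot be told apart. Log2 array values have no true 0, so no marker can be called absent.

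In the other strata the counts of called genes were 0 of 9. In early TRAMP 0.167% of all probe sets had ranges apart and in late mice without the transgene 3.45%, and 0 of the 9 genes did in either. No probe set at all (0%) was called by limma without the transgene at either age, with 3185 late and 843 early ones at an unadjusted p under 0.05.

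Whether the effect of OPN loss differed between ages was tested within TRAMP. The late minus early difference was -1.33 ± 0.25 for Ppm1k (adjusted p = 0.000227), -1.47 ± 0.43 for Hsd17b11 (adjusted p = 0.0172) and -1.52 ± 0.40 for Aff1 (adjusted p = 0.00701), and these 3 of 9 were called where 15.9% of all probe sets were. For Hsd17b11 the call was lost once AUC (-0.79) or age in weeks (-1.18) entered the fit. The effect with the transgene minus that without it was called for 0 of 9 genes (1.4% of all probe sets). For Aff1 this difference was 0.30 ± 0.32.

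Within the OPN-null TRAMP mice, late minus early, Ppm1k fell by 1.17, Hsd17b11 by 1.38 and Aff1 by 1.36 on the log2 scale (adjusted p = 3.4e-05, 0.00328 and 0.00163), and 22.4% of all probe sets were called. In OPN-intact TRAMP mice the age differences of the same genes were 0.17, 0.09 and 0.16. There 0 of 9 genes and no probe set (0%) were called by limma, with 1063 probe sets at an unadjusted p under 0.05. Both age comparisons share arrays with the genotype comparisons above, so they are no separate support for them.

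The transgene itself was compared within each genotype and age. It was called for 0 of 9 genes in early wild-type (0.036% of all probe sets), late wild-type (0.63%) and early OPN-null mice (0.0946%). In late OPN-null mice Ppm1k fell by 0.72 on the log2 scale (SE 0.24, adjusted p = 0.0374), 1 of 9 genes where 11.9% of all probe sets were called. That call was lost without OT3, O2, O14 or O7, at -0.77 to -0.53, without the arrays under 0.7 in AUC (-0.46), with age in weeks as a covariate (-0.67) and with only the compared groups fitted (-0.72). Without the arrays under 0.7 Hsd17b11 was called instead (-1.64).

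Against SPARC-null mice, averaged over the 4 strata, 5 of 9 genes were called with 22.8% of all probe sets: Ibsp higher, and Ppm1k (-0.52), Nudt9 (-0.29), Hsd17b11 (-0.56) and Aff1 (-0.90 ± 0.16, adjusted p = 3.67e-05) lower. Only Aff1 of these was called without the late TRAMP stratum, at -0.58, where 6.24% of all probe sets were called. With AUC as a covariate Ppm1k, Nudt9 and Aff1 (-0.46) were called, with 9.37% of all probe sets. The Nudt9 call was lost without OT2 (-0.22) or O14 (-0.26), without the arrays under 0.7 (-0.28), with age in weeks (-0.22) and with quantile normalisation repeated (-0.19). That of Hsd17b11 was lost without the arrays under 0.7 (-0.48). SPARC loss itself was called for 0 of 9 genes and 0.887% of all probe sets, and Aff1 differed by -0.17 ± 0.14 between SPARC-null and SPARC-intact mice. With AUC as a covariate that value was -0.38 ± 0.09 and Aff1 was called lower in SPARC-null mice too. The adjusted p of that comparison for Aff1 ranged from 0.00805 to 0.967 over its 8 alternatives. Sparc fell by 0.55 ± 0.09 on the log2 scale in SPARC-null mice, averaged over the 4 strata. This fall is partial, so it does not by itself establish the SPARC genotype. What the remaining signal reads was not tested.

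Expression of several of the 9 genes followed array quality over the 67 arrays. For Aff1 the correlation with AUC was 0.706 (Spearman's rho 0.57), each with a permutation p of 1e-05, the smallest that 1e+05 permutations can give, and adjusted p-values of 1.8e-05 and 2.2e-05 over the 9 genes. With the 2 arrays of most extreme AUC left out it was 0.663, and it ran from 0.492 to 0.972 within the 7 groups of at least 6 arrays. Hsd17b11 gave r = 0.789 (rho 0.803; 0.393 to 0.955 within groups) and Ibsp r = -0.734 (rho -0.68; -0.957 to -0.469 within groups), with the same p-values. With the same 2 arrays left out r was 0.778 and -0.714. Dspp (r = -0.636, rho -0.583), Dmp1 (-0.607, -0.499) and Mepe (-0.471, -0.331) were also lower on arrays of higher quality, with adjusted permutation p-values for r of 1.8e-05, 1.8e-05 and 7.5e-05, although within-group values reached 0.334, 0.0127 and 0.223. Abcg2 (0.315, 0.25), Ppm1k (0.284, 0.105) and Nudt9 (0.115, 0.0109) had smaller coefficients, with adjusted permutation p-values for r of 0.013, 0.022 and 0.4.

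Low values of Aff1 were also found on poor arrays of OPN-intact groups: 6.20 on S1 (AUC 0.682), 6.72 on ST22 (0.689) and 6.87 on T10 (0.674). The other OPN-intact array under 0.7, B6 (0.698), measured 7.37. The late OPN-null TRAMP arrays OT2 (6.30) and OT6 (6.56) were low at an AUC of 0.72 and 0.721. With AUC as a covariate the Aff1 difference was -1.28 in late TRAMP and -0.84 in the 4-strata average, both called, and -0.98 in late and -0.69 in early mice without the transgene, neither called. For Hsd17b11 the 4-strata value was -0.25 with that covariate and for Ppm1k -0.36, of which Ppm1k was called.

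**Figure D4:**
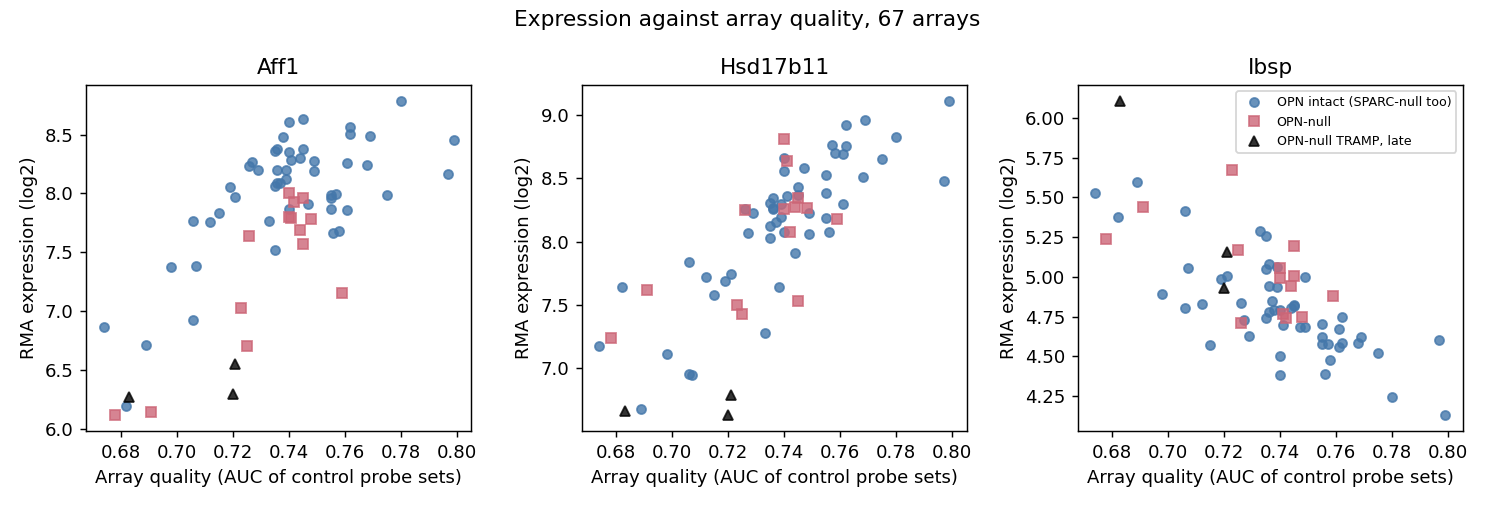
Log2 expression of Aff1, Hsd17b11 and Ibsp (vertical axes) against array quality, the AUC of positive over negative control probe sets (horizontal axes), with 1 point for each of 67 arrays; circles are OPN intact (SPARC-null included), squares OPN-null and triangles late OPN-null TRAMP. Aff1 and Hsd17b11 rise with quality (r = 0.706 and 0.789) and Ibsp falls (r = -0.734).

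The wider neighbourhood was described with the 30 nearest measured genes on each side of Spp1, 60 in all, 7 of them among the 9 genes. In late TRAMP 24 of the 60 were called (40%), 12 higher and 12 lower, beside 21.5% of all probe sets. In the 4-strata average 6 of 60 were called (10%), beside 8.3%. Lower were Plac8, a small cysteine-rich protein (-1.51 ± 0.18), Aff1, Cds1 (-0.34), Gpat3 (-0.22) and Thoc2l (-0.24). Cds1 and Gpat3 are enzymes of phospholipid and triglyceride synthesis. Brdt, a bromodomain protein of the testis, was higher (0.25). The limma adjusted p was 1.81e-08 for Plac8, but 0.0224 for Cds1, 0.038 for Gpat3, 0.0468 for Thoc2l and 0.0475 for Brdt. Whether the calls of these neighbours depend on single arrays was not tested. Plac8 differed by -4.59 ± 0.31 in late TRAMP, -0.15 in early TRAMP, -1.33 in late and 0.03 in early mice without the transgene, and only the first was called. By p-value Aff1 was the first of the 60 genes in both comparisons without the transgene, the second in the average, the fifth in late TRAMP and the 31st in early TRAMP. Against SPARC-null mice 14 of 60 were called (23.3%), beside 22.8% of all probe sets, and SPARC loss was called for 1 of 60 (1.67%), beside 0.887%.

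**Figure D5:**
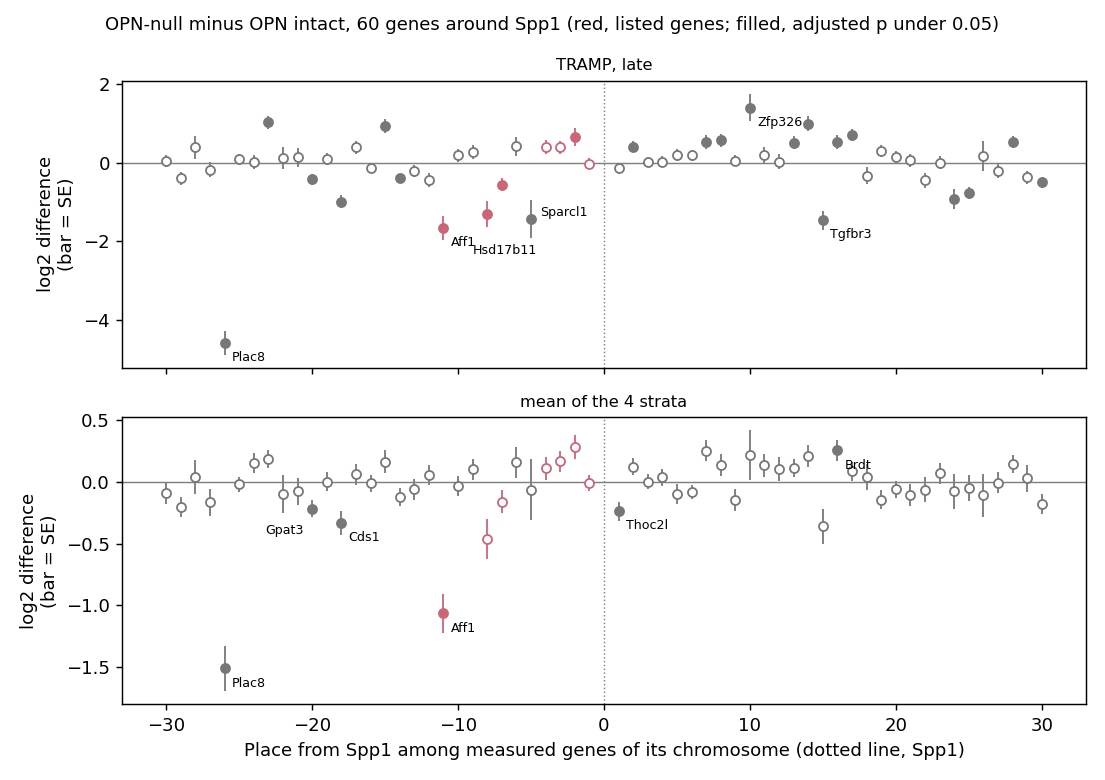
OPN-null minus OPN-intact log2 difference (vertical axes, bar = SE) of the 60 measured genes nearest to Spp1 by their place on either side of it (horizontal axis), in late TRAMP above and in the mean of the 4 strata below; red marks the listed genes and filled points had an adjusted p under 0.05. In the mean, Plac8 at -1.51 and Aff1 at -1.07 stand below the other genes.

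A wider list of 36 genes held receptors, proteases and modifying enzymes of the SIBLING proteins together with other genes of mineralisation and the matrix, transcription factors and secreted regulators among them, of which 32 were measured. In late TRAMP 11 of 32 were called, 4 higher and 7 lower, beside 21.5% of all probe sets, with a median of -0.06 over the list. The largest rises were of Tll1 (0.83 ± 0.15), a tolloid-like protease, Fam20c (0.68 ± 0.15), the kinase that phosphorylates the SIBLING proteins, and Mmp20 (0.67 ± 0.18), a protease of enamel. The largest falls were of Sparcl1 (-1.44 ± 0.48), a SPARC-like matrix protein whose gene lies 5 places from Spp1, Mmp14 (-0.90 ± 0.21), a membrane-bound protease, and Mgp (-0.54 ± 0.16), an inhibitor of calcification. Itgav, the alpha-v integrin chain through which osteopontin and bone sialoprotein are bound, fell by 0.44 on the log2 scale. It was the only one called among the listed integrin chains and Cd44, and the others ran from -0.74 (Itga8) to 0.42 (Itga9). In the other strata Itgav differed by -0.19 in early TRAMP, 0.17 in late and 0.29 in early mice without the transgene, none called. In the 4-strata average 2 of 32 were called, Mmp20 (0.30) and Mmp14 (-0.34), beside 8.3% of all probe sets.

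The genes whose values were most like those of Aff1 over the 67 arrays were Slc1a5 (r = 0.885), a glutamine transporter, Rnf31 (0.88), a subunit of a ubiquitin ligase, Txnip (0.873), which binds thioredoxin, B4galnt1 (0.871), which makes gangliosides, and Casp8 (0.861), an initiator of apoptosis. Of all probe sets 0.383% had a correlation above 0.8 with Aff1. Among the listed genes Hsd17b11 (0.75) and Ppm1k (0.601) varied with it, and Ibsp (-0.702), Dspp (-0.585) and Dmp1 (-0.575) against it. These arrays share the range of quality described above, so the coefficients describe this set of arrays.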

How the data were processed

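Per the submitters' processing notes, the deposited values are log2 expression values that the authors made with RMA (background correction, quantile normalisation, summarisation of probes) in oligo, of which the versions are not stated. Labels name Qiazol and RNeasy for extraction. The table held 29129 probe sets, of which 6923 controls stayed out of the tests. Of the 22206 tested, 19572 carried 1 gene symbol and 2634 none, and all 19572 matched RefSeq gene identifiers (GRCm38.p6, used for names and gene order, since the array's build is not stated). Values ran from 2.56 to 13.82, array medians from 6.16 to 6.26, and no 2 arrays correlated above 0.987.

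Differences were tested with limma 3.58.1 in R 4.3.3 in 3 fits: 38 transgenic arrays, 29 non-transgenic arrays, and all 67 with a weight of 1.11 (transgenic) or 0.87 for comparisons across both. P-values are 2-sided, adjusted by Benjamini-Hochberg over all 22206 probe sets, and called under 0.05. The fits were checked on simulated data for 7 of the 15 comparisons. The simulated noise was independent between arrays, had the same spread in every group and had no tie to array quality. The check therefore cannot show how quality or unequal spread between groups affects the fits. Single genes were also tested by 2-sided exact permutation. The number of arrays limits the precision. Each array is 1 animal. Each gene's brightest named probe set was to be used, and each had 1. From the partner list the 3 largest called changes each way are named in late TRAMP (Itgav was added after its values were seen), and of the 60 neighbours those called in the average. The genes, lists and tests were chosen with earlier results of these data known. The averages without late TRAMP or over non-transgenic strata, and the alternatives for the transgene and age comparisons, were added after seeing the data. Gene-set tests were not used, and array O12 entered no group.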

Additional observations from a re-analysis of the deposited data

Results flagged for a closer look

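Among 90 sets of values (9 genes in groups of 4 to 9 arrays), 10 held an array set apart from its group by Dixon's test, where chance gives about 1 in 20. Array S1 of the early SPARC-null group without the transgene was highest for Mepe (6.822) and Dspp (7.506) and lowest for Aff1 (6.198). Array B6 of the late wild-type group was highest for Mepe (7.275) and lowest for Nudt9 (7.89), Hsd17b11 (7.109) and Aff1 (7.372). Both arrays were under 0.7 in AUC, and the part of array quality in these values was not tested. Array B11 of the early wild-type group was lowest for Dmp1 (4.552) and Abcg2 (7.241). Array OT14 of the early OPN-null TRAMP group was lowest for Aff1 (7.026). The effect of OPN loss in TRAMP differed between late and early mice by the interaction test for Ppm1k (-1.3347), Hsd17b11 (-1.4729) and Aff1 (-1.5182).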

How the results depend on the processing

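Of 1078 values of single genes under processing alternatives, 1037 kept their direction and side of the threshold or were uncalled throughout (61 of these changed sign uncalled), 30 lost a call, 9 gained one and 2 turned. These values include the averages over fewer strata. With 1 array left out, 2693 of 2727 values were on the same side, 18 lost and 16 gained a call, and 0 turned. In each count below, the share of all probe sets called in the same fit follows in brackets. In late TRAMP 6 genes were called (21.5%), and 7 with only the compared groups fitted (19.8%). There were 5 with quantile normalisation repeated (22.3%) or a trended and robust prior (21.4%). With AUC as a covariate (20.8%) or without low-quality arrays (19%) 4 were called, and 3 with age in weeks as a covariate (13.4%). In the 4-strata average 2 were called (8.3%), 1 over the 3 strata without late TRAMP (0.131%), 1 over the 2 non-transgenic strata (0.428%), 1 over 3 strata with AUC as a covariate (0.504%) and 0 over 3 strata without low-quality arrays (0.0135%). Against SPARC-null mice 5 were called (22.8%), and 4 with age in weeks (25.2%) or quantile normalisation repeated (19.4%). There 3 were called with AUC (9.37%), 3 without low-quality arrays (10.2%) and 1 without late TRAMP (6.24%). SPARC loss called 0 (0.887%), and 1 with AUC (3.04%). The transgene called 0 in late wild-type mice (0.63%), and 1 with AUC (1.7%) or without low-quality arrays (1.04%). In early OPN-null mice it called 0 (0.0946%), and 1 without low-quality arrays (0.32%). In late OPN-null mice it called 1 (11.9%), and 0 with only the compared groups fitted (1.31%) or with age in weeks (10.6%), but 2 with AUC (18.6%) or with quantile normalisation repeated (14.6%). For age in OPN-null TRAMP 3 were called (22.4%), and 4 with AUC (20.1%). With age in weeks as a covariate 0 were called (1.53%), and Hsd17b11 (0.35) and Aff1 (0.12) changed sign. Age class and weeks overlap by construction there. With 1 array left out the counts ran from 0 to 1 in late mice without the transgene, from 2 to 5 in the 4-strata average and from 0 to 1 for the transgene in late OPN-null mice. The filter on dim probe sets removed Ibsp from the non-transgenic fits, and no gene had a second probe set to try. No paired analysis was possible because each array is its own animal and the codes pair no groups. The dimmest genes (Ibsp, Dmp1) lie within the negative controls, which limits the size of their differences. The late OPN-null TRAMP means of Ppm1k, Aff1 and Hsd17b11 lie among those controls too, with the same limit. For other changed calls the cause was not tested.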

Other observations

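Array O12, which entered no group, came from a 16-week-old mouse without the transgene and had an AUC of 0.756. It measured 7.67 for Aff1, 8.07 for Hsd17b11, 6.29 for Ppm1k, 10.67 for Abcg2, 4.39 for Ibsp, 4.93 for Dmp1, 6.03 for Dspp and 6.47 for Mepe.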
